A study of Caenorhabditis elegans with 6 samples.

Results

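The col genes encode cuticle collagens, and 156 of the 46726 genes counted in this series carry a symbol made of col- and digits. All 156 were taken as members by symbol alone, each matched to 1 WormBase gene identifier, and all are protein-coding genes in the WBcel235 annotation, on chromosomes I to V and X. The libraries were made from polyA RNA of GFP-positive cells sorted out of pooled L4 larvae, and the genotypes were wild type and mec-8(e398), with 3 libraries each. By the study's methods every sorted strain carried the mec-4p::GFP transgene, which marks the touch neurons, although the strain label of the wild-type libraries is N2, the name of the GFP-free strain used to set the sorting gates. Each library came from a pool of animals, and nothing in the labels says whether replicates were grown on different days. Below, libraries are called wild type 1 to 3 and mec-8 1 to 3 after their labels.

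Cuticle collagens are small secreted proteins with repeated Gly-X-Y triplets. In C. elegans the epidermis, also called the hypodermis, makes them anew for each molt, and they are trimmed, cross-linked and laid down in the cuticle. Different members are made at different stages. In the literature col-19 and col-7 mark the adult epidermis and col-17 the larval one, while col-2 and col-183 belong to the dauer larva, an arrested stage. The touch neurons lie against the epidermis and are not known as a source of cuticle collagen. MEC-8 itself is made in the epidermis as well as in the touch neurons.

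Collagen reads were plentiful in all 6 libraries, but different genes supplied them in different libraries. The family took 10.4% of the gene counts in wild type 1 (95% Wilson interval 10.36% to 10.38%), 4.02% in wild type 2 (4.01% to 4.03%) and 1.19% in wild type 3 (1.186% to 1.197%). In mec-8 1, 2 and 3 the shares were 1.97% (1.970% to 1.980%), 6.48% (6.47% to 6.49%) and 1.99% (1.984% to 1.996%). The intervals cover counting error only. The wild-type mean was 5.19% ± 4.70 and the mec-8 mean 3.48% ± 2.60 (SD, n = 3 each), and the ranges of the genotypes overlapped. Without wild type 1 the wild-type mean was 2.61%, and without mec-8 2 the mec-8 mean was 1.98%, so 1 library in each genotype held the larger part of the collagen reads. The libraries held between 15334872 and 33094142 counts on genes. Levels are given in CPM (counts of a gene for each 1e6 counts on genes), and a limit of detection set at 3 counts corresponded to 0.0907 to 0.196 CPM.

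Of the 156 members, 152 had at least 1 count in some library and 135 reached 10 counts in at least 1. In every library 67 members reached 10 counts. The members with 0 counts throughout were col-37, col-171, col-183 and col-185. A further 69 members had counts in some libraries and none in others. Among the 135 members that reached 10 counts, the highest library exceeded the lowest by a median of 72.3-fold, with libraries under 3 counts set to 3 counts, and by over 100-fold in 56. The annotation places another gene on the same strand over 13 members and on the other strand over 67. How the counting handled strand is not given in the sources used here, so the reads of such overlapping genes cannot be told apart, and tandem copies close in sequence may also share reads.

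A handful of members carried most of the collagen reads of a library. In wild type 1, 2 and 3, the 10 members with the most counts held 74.0%, 73.0% and 61.8% of the collagen reads. In mec-8 1, 2 and 3 they held 58.2%, 66.2% and 68.9%. The number of members needed for 50% of the collagen reads was 5, 3 and 7 in the wild-type libraries and 8, 5 and 6 in the mec-8 libraries. The lead gene was col-140 in wild type 1 and mec-8 1, with 19.9% and 10.97% of the collagen reads, col-107 in wild type 2 with 31.3%, col-176 in wild type 3 with 10.7%, col-125 in mec-8 2 with 20.4% and col-80 in mec-8 3 with 15.9%. Counts per kilobase of exon gave the same lead gene in 5 of the 6 libraries, with col-125 ahead of col-176 in wild type 3 at 1288 against 1178 CPM per kilobase.

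**Figure D1:**
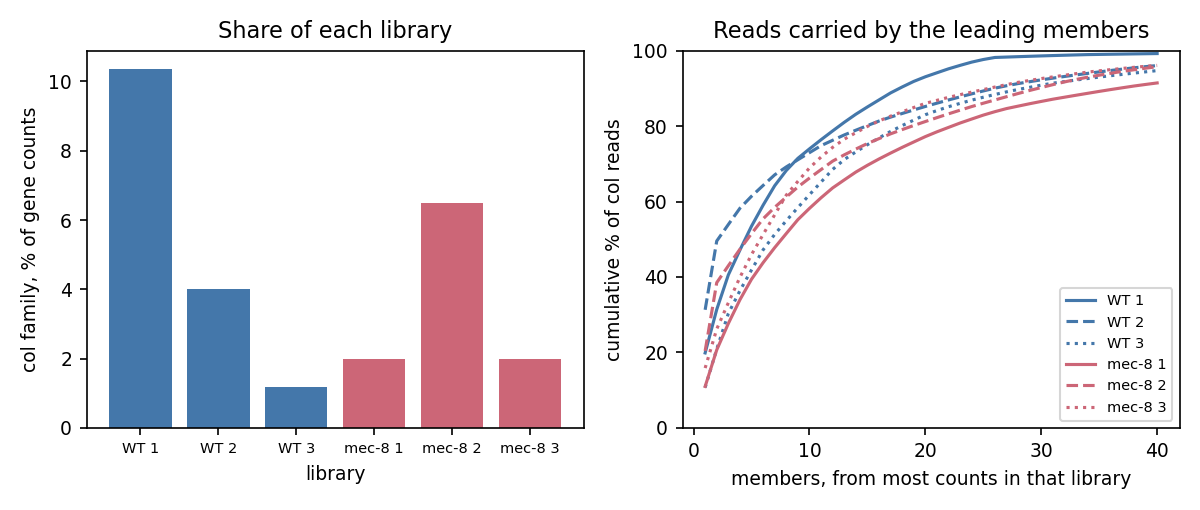
The left panel shows the percentage of gene counts on the col family in each library, blue for wild type (WT) and red for mec-8, and the right panel the cumulative percentage of collagen reads as members are added from the most counted downwards. The bars run from 1.19% in wild type 3 to 10.4% in wild type 1, and every curve passes 50% within 8 members.

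The sharing of leading members between libraries did not follow genotype. Over the 6 libraries, 28 members stood among the leading 10 of at least 1 library, 10 of them in 1 library only, 7 in 2, 8 in 3, 3 in 4 and none in 5 or 6. Wild type 1 shared 0 of its leading 10 with wild type 2 and 1 with wild type 3, but 7 with mec-8 1 and 5 with mec-8 3. Wild type 2 shared 7 with wild type 3 and 7 with mec-8 2. Library mec-8 1 shared 5 with mec-8 3 and 1 with mec-8 2. Across genotype, wild type 2 shared 0 with mec-8 1, and wild type 1 shared 1 with mec-8 2, as did wild type 3 with mec-8 1. High and low numbers thus occurred both within and across the genotypes.

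The correlation of log2(CPM + 0.5) over the 135 members that reached 10 counts followed the same arrangement. It was 0.13 between wild type 1 and wild type 2, 0.34 between wild type 1 and wild type 3, 0.82 between wild type 1 and mec-8 1 and 0.84 between wild type 1 and mec-8 3. Between wild type 2 and mec-8 2 it was 0.94, between wild type 2 and wild type 3 it was 0.81, and between mec-8 1 and mec-8 2 it was 0.48. For the other 17908 genes that reached 10 counts the same pairs gave 0.72, 0.69, 0.65, 0.72, 0.85, 0.74 and 0.75. Wild type 1 and wild type 2 were thus among the least alike in their collagens while not standing apart to that degree in their other genes. Genes of 1 library share its depth and its total, and these correlations are descriptions.

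**Figure D2:**
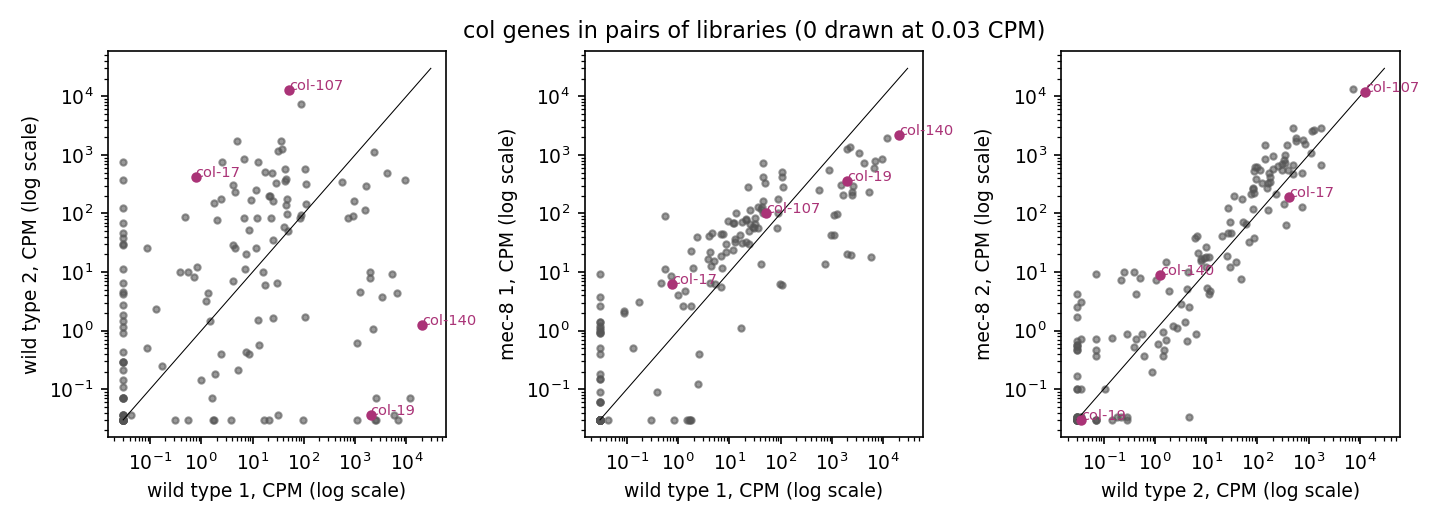
Each point is 1 of the 156 col genes, placed by its CPM in 2 libraries on log axes, with 0 counts drawn at 0.03 CPM and the line marking equal levels. The points lie along the line for wild type 2 against mec-8 2 and scatter away from it for wild type 1 against wild type 2, where col-140 and col-19 lie at the lower right and col-107 and col-17 at the upper left.

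To describe this without grouping the libraries beforehand, each gene was assigned the 3 libraries in which its CPM was highest, out of 20 possible sets of 3. Of these, 3 sets held 86 of the 135 members. For 32 members (23.7%) the highest libraries were wild type 2, wild type 3 and mec-8 2, against 13.9% of the 18043 genes that reached 10 counts. For 30 members (22.2%) they were wild type 2, mec-8 1 and mec-8 2, against 6.24% of all genes. For 24 members (17.8%) they were wild type 1, mec-8 1 and mec-8 3, against 2.70% of all genes. Each of these sets crosses the genotypes, as do all possible sets except the all-wild-type set and the all-mec-8 set. The sets that follow genotype were rare among the members. Every mec-8 library was above every wild-type library for 3 members (2.22%), against 4.71% of all genes, and every wild-type library was above every mec-8 library for 1 (0.741%), against 1.60%. No test was made of these shares, because the members share libraries and the sets were read from the same counts.

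**Figure D3:**
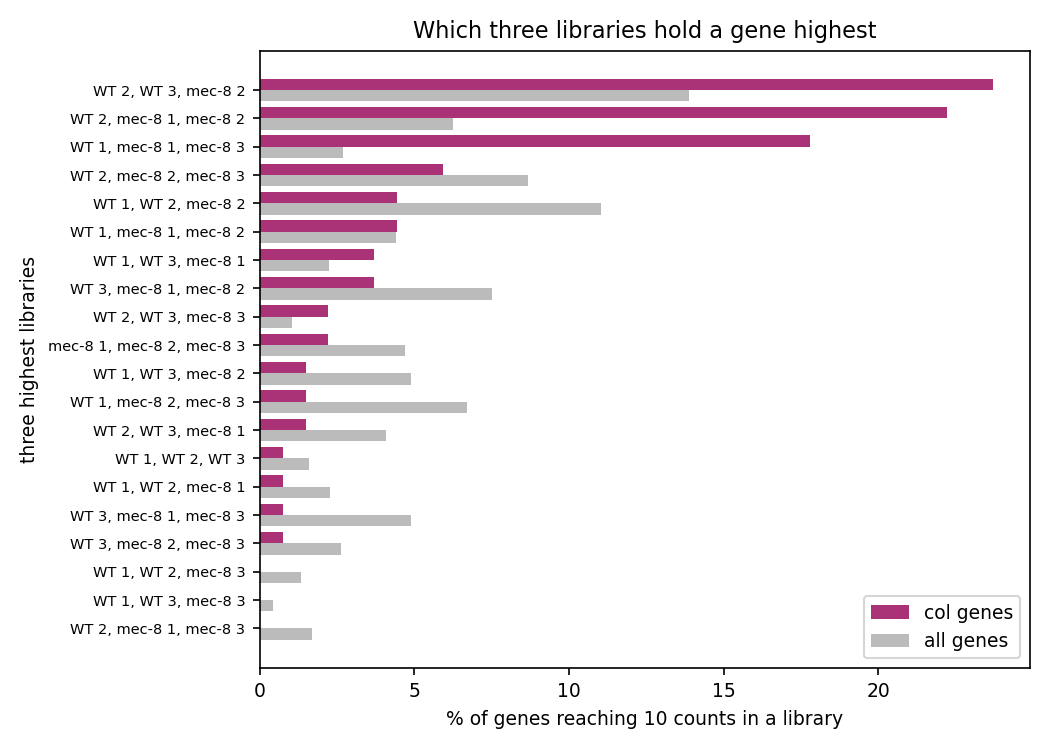
Bars give the percentage of genes whose 3 highest libraries are the set named at the left, for the col genes (135 members) and for all genes (18043) that reached 10 counts in a library. The 3 longest bars of the col genes, at 23.7%, 22.2% and 17.8%, belong to sets that mix wild-type (WT) and mec-8 libraries, as most possible sets do.

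The 24 members highest in wild type 1, mec-8 1 and mec-8 3 carried 76.9%, 55.9% and 39.2% of the collagen reads of those libraries. They carried 0.117% in wild type 2, 1.08% in wild type 3 and 0.122% in mec-8 2. The 32 members highest in wild type 2, wild type 3 and mec-8 2 held 37.4%, 50.6% and 40.6% of the collagen reads there, and 0.334%, 4.19% and 10.3% in wild type 1, mec-8 1 and mec-8 3. The 30 members highest in wild type 2, mec-8 1 and mec-8 2 held 10.5%, 14.9% and 18.2% there and at most 3.87% elsewhere. Since the sets were chosen by these values, the contrast between libraries is built into them, and the shares say only how much of the collagen RNA each set accounts for.

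The gene col-140 (WBGene00000713, chromosome V, 5835855 to 5836834, minus strand) held 20596, 1.26 and 6.59 CPM in wild type 1, 2 and 3. In mec-8 1, 2 and 3 it held 2167, 8.80 and 1040.3 CPM. It was therefore abundant in 1 wild-type library and 2 mec-8 libraries and close to absent in the other 3. The gene col-124 (chromosome IV, 10216451 to 10217617, plus strand) had the same outline, with 11941, 0.0717 and 40.2 CPM in wild type 1, 2 and 3 and 1913, 9.30 and 1384 CPM in mec-8 1, 2 and 3. In wild type 2 it rested on 2 counts.

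Other leading members followed col-140. The level of col-20 was 6843, 0 and 14.9 CPM in wild type 1, 2 and 3 and 788, 1.72 and 226 CPM in mec-8 1, 2 and 3. That of col-178 was 6556, 4.30 and 3.65 CPM in the wild-type libraries and 591, 0.662 and 221 CPM in the mec-8 libraries. Both had wild type 1 far above the rest, then mec-8 1, then mec-8 3. The level of col-139 was 2224, 1.08 and 3.20 CPM in wild type and 1381, 7.31 and 430.1 CPM in mec-8. That of col-129 was 3339, 3.802 and 2.74 CPM in wild type and 1075, 1.39 and 1201 CPM in mec-8, and that of col-81 was 1928, 10.2 and 5.15 CPM in wild type and 1244, 5.39 and 1343 CPM in mec-8. For col-139, col-129 and col-81 the 3 high libraries lay closer together than for col-20 and col-178.

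The gene col-107 (chromosome IV, 1548721 to 1549714, plus strand) ran the other way, with 52.5, 12587 and 489 CPM in wild type 1, 2 and 3 and 101, 11728 and 2059 CPM in mec-8 1, 2 and 3. The gene col-125 (chromosome IV, 11225506 to 11226516, plus strand) held 90.1, 7334 and 1212 CPM in wild type 1, 2 and 3 and 179.6, 13217 and 509.6 CPM in mec-8 1, 2 and 3. Together these 2 genes supplied 31.3% and 18.2% of the collagen reads of wild type 2 and 18.1% and 20.4% of those of mec-8 2, in the order col-107, col-125. A gene on the other strand overlaps each of them in the annotation.

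Further leading members of wild type 2 and mec-8 2 were lower elsewhere to different degrees. The level of col-90 was 5.01, 1757 and 7.76 CPM in wild type 1, 2 and 3 and 15.7, 678 and 16.2 CPM in mec-8 1, 2 and 3. That of col-130 was 35.9, 1736 and 76.0 CPM in wild type and 56.1, 2898 and 120.4 CPM in mec-8. These 2 genes were high in those libraries alone. The level of col-167 was 36.96, 1279 and 432 CPM in wild type and 128, 2687 and 57.7 CPM in mec-8. That of col-176 was 6.74, 846 and 1274 CPM in wild type and 18.7, 1530.2 and 724 CPM in mec-8, so that 4 libraries held it high and wild type 1 and mec-8 1 low.

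Some leading members had other outlines. The gene col-80 (chromosome II, 10707201 to 10708287, plus strand) held 9502, 379 and 406 CPM in wild type 1, 2 and 3 and 867, 1456 and 3154 CPM in mec-8 1, 2 and 3. The gene col-93 held 4189.6, 494 and 311 CPM in wild type and 738, 2838 and 578 CPM in mec-8. Neither fell near 0 in any library. The gene col-98 held 2363, 1132 and 1122 CPM in the wild-type libraries and 19.5, 1075 and 1038 CPM in the mec-8 libraries, low in mec-8 1 alone. It was the only member (0.741%) with every wild-type library above every mec-8 library, against 1.60% of all genes. The gene col-118 held 46.2, 179.9 and 722 CPM in wild type and 103, 346 and 343 CPM in mec-8, highest in wild type 3.

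**Figure D4:**
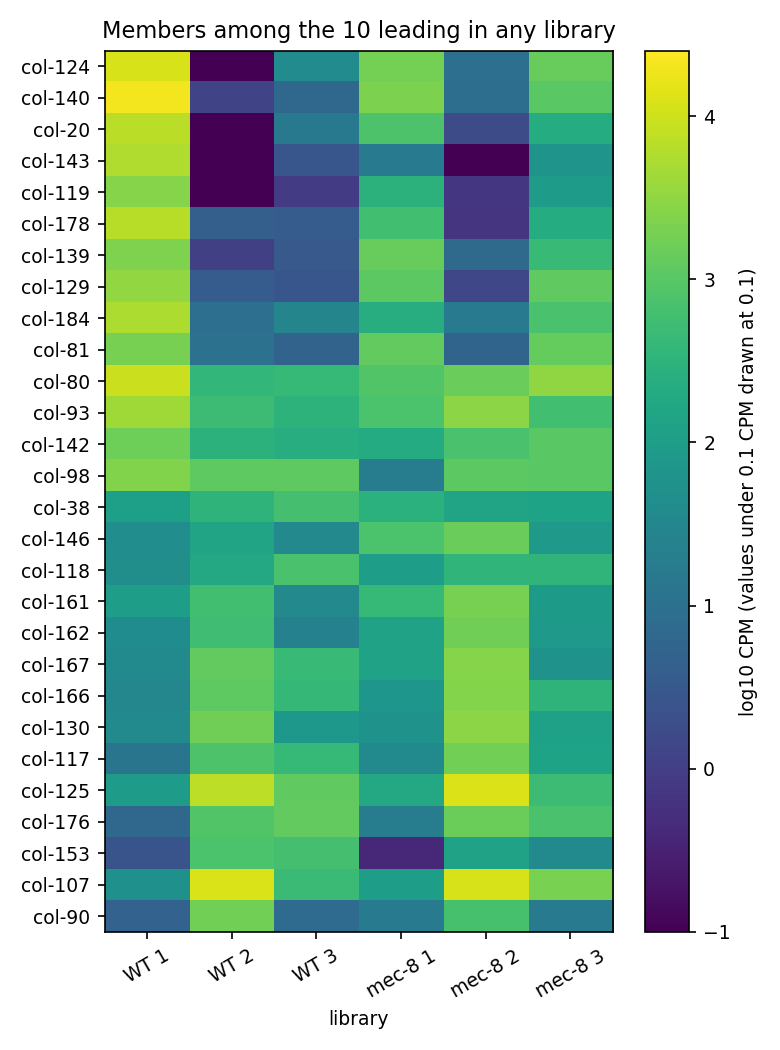
Rows are the 28 members that stood among the leading 10 of at least 1 library, ordered by the ratio of wild type 1 to wild type 2, columns are the 6 libraries (WT, wild type), and colour is log10 CPM with values under 0.1 CPM drawn at 0.1. The rows at the top are bright in wild type 1, mec-8 1 and mec-8 3 and dark in wild type 2, and those at the bottom are bright in wild type 2 and mec-8 2.

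Members with a known stage were read next, as a check of the L4 label. The adult collagen col-19 (chromosome X, 421707 to 422691, plus strand), a target of the heterochronic transcription factor LIN-29, had 46394, 1 and 5 counts in wild type 1, 2 and 3, or 2003, 0.0359 and 0.326 CPM. In mec-8 1, 2 and 3 it had 11751, 0 and 3587 counts, or 355, 0 and 158 CPM, where 0 counts in mec-8 2 allow up to 0.0992 CPM. The adult collagen was thus abundant in 3 libraries and at or near the limit of 3 counts in the other 3. The second adult collagen, col-7, stood at 13.4, 0.574 and 0 CPM in wild type and 103.8, 0.893 and 21.2 CPM in mec-8, with the same 3 libraries above the others. Yolk protein genes, 6 in all and expressed in the adult hermaphrodite intestine, summed to 5537, 15.5 and 2.48 CPM in wild type 1, 2 and 3 and to 46845, 2.02 and 3458 CPM in mec-8 1, 2 and 3. All libraries are labelled L4, and whether animals of different ages entered the pools was not tested.

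The larval collagen col-17 (chromosome II, 4866436 to 4867576, minus strand) held 0.777, 417 and 12.5 CPM in wild type 1, 2 and 3 and 6.22, 192 and 7.09 CPM in mec-8 1, 2 and 3. It was high in wild type 2 and mec-8 2, the libraries in which col-19 had 1 and 0 counts. A further 3 collagens described as LIN-29 targets of the late L4 stage did not share 1 outline. The level of col-38 was 109, 324 and 656 CPM in wild type and 281, 144 and 133 CPM in mec-8. That of col-49 was 16.1, 9.83 and 25.4 CPM in wild type and 43.6, 12.3 and 9.42 CPM in mec-8, and that of col-63 was 7.38, 0.430 and 23.1 CPM in wild type and 44.8, 4.27 and 4.93 CPM in mec-8. All 3 were among their highest in wild type 3 or mec-8 1, and each reached 10 counts in every library. The dauer collagens were close to absent, col-2 with 0, 1 and 4 counts in wild type 1, 2 and 3 and 0, 22 and 0 counts in mec-8 1, 2 and 3, and col-183 with none.

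The tandem pair col-12 and col-13 on chromosome V, 1995 bases apart on the minus strand, was highest in mec-8 1 and mec-8 2 and lowest in wild type 3. The level of col-12, known from the late part of each molt cycle, was 50.1, 49.5 and 3.52 CPM in wild type and 331, 177 and 16.1 CPM in mec-8. That of col-13 was 11.5, 26.1 and 2.02 CPM in wild type and 68.1, 123 and 7.53 CPM in mec-8. The lead was with mec-8 1 for col-12 and with mec-8 2 for col-13, and their sets of 3 highest libraries differed. These copies are close in sequence and their reads may be shared or set aside. The genes col-10, col-13 and col-120 are known as collagens that long-lived mutants need, acting with the stress factor SKN-1. The level of col-10 was 28.8, 327 and 187 CPM in wild type and 58.6, 823 and 53.3 CPM in mec-8, and that of col-120 was 29.7, 6.56 and 9.13 CPM in wild type and 55.5, 41.8 and 34.0 CPM in mec-8. The mec-8 libraries lay above all wild-type libraries for col-120, by 34.0 against 29.7 CPM at the closest. The gene col-99 encodes a membrane-anchored collagen linked to axon guidance and is not a cuticle component. It had 0, 6 and 27 counts in wild type 1, 2 and 3 and 0, 1 and 2 counts in mec-8 1, 2 and 3, and 5 other genes overlap it.

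Members that neighbour each other on a chromosome often had the same 3 highest libraries. Of 29 pairs of adjacent members within 10 kb, 25 had both genes counted. Of these, 11 (44.0%) shared their set, against 14.3% of the 9045 pairs among the 135 counted members. The pairs col-46 with col-47 and col-159 with col-160 are among the 11. Their genes overlap in the annotation and may share or lose reads. The share among neighbouring genes outside the family was not computed, so whether 44.0% is particular to the family cannot be said. On chromosome X, col-167, col-168, col-169 and col-170 lie in a row within 6323488 to 6332611. They were all highest in wild type 2, wild type 3 and mec-8 2, and their pairs are also among the 11. Proximity did not always go with likeness. The genes col-17 and col-20 lie 2093 bases apart on the minus strand of chromosome II, and col-17 had 417 CPM in wild type 2 where col-20 had 0 counts, while col-20 had 6843 CPM in wild type 1 where col-17 had 0.777. By chromosome, IV carried 41 members and supplied 60.0% of the collagen reads of wild type 2, against 24.0% in wild type 1. Chromosome V, with 31 members, supplied 32.8% in wild type 1 and 11.6% in wild type 2. Chromosome I, with 21 members, supplied at most 1.87% in any library.

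To compare mec-8 with wild type, edgeR's quasi-likelihood test was fitted across all genes with Benjamini-Hochberg adjustment. Of 119 members that passed the filter on low counts, 0 had an adjusted p under 0.05, as did 0 of all 14614 genes tested (0%). The filter keeps genes by their level in enough libraries, and 37 members did not pass it. At an unadjusted p under 0.05 there were 6 members (5.04%), all higher in mec-8, against 3.22% of all genes in either direction and 2.87% in that one. DESeq2 called 1 member, col-127, at an adjusted p under 0.05, where it was higher in mec-8, against 0.349% of all genes in either direction and 0.287% in that one. On counts simulated with the spread estimated from these libraries, 118 of the 127 genes DESeq2 called had not been changed. The simulation drew each gene independently, with log2 changes of 2, so it cannot say whether the call of col-127 is false. The members' median log2 fold change of mec-8 over wild type was 0.33, beside 0.01 over all genes. Of the members, 67 (56.3%) were higher and 52 lower, against 50.5% of all genes higher. The 6 members at an unadjusted p under 0.05 became 14, 10 and 1 without wild type 1, 2 and 3, in either direction. Without mec-8 1, 2 and 3 they became 2, 3 and 8. Of all genes, 470 became 629, 361 and 1335 without wild type 1, 2 and 3, and 377, 717 and 264 without mec-8 1, 2 and 3. Numbers tested rose from 119 members and 14614 genes to at most 129 and 15881. Without wild type 3 the share was 1 of 127 members against 1335 of 15680 genes. The members' median log2 fold change was -0.07 without mec-8 1 and -0.97 without mec-8 2. The direction of the family between genotypes therefore rested on single libraries.

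Among the 4 members with the highest mean level, the SD of the wild-type libraries was larger than the difference between the genotype means. The SD of the mec-8 libraries was larger than that difference for col-107 and col-125 but not for col-140 and col-80. The level of col-107 was 4376 ± 7114 CPM in the wild-type libraries and 4629 ± 6225 CPM in the mec-8 libraries (mean ± SD, n = 3 each), and its log2 fold change in edgeR was 0.04 ± 2.01 (standard error), with an adjusted p of 1.0. That of col-140 was 6868 ± 11889 CPM in the wild-type libraries and 1072 ± 1079 CPM in the mec-8 libraries (mean ± SD, n = 3 each), with -2.32 ± 2.98 (standard error) on the log2 scale and an adjusted p of 1.0 in edgeR. Without wild type 1 the log2 fold change of col-140 was 8.04. For col-125 it was 0.50 ± 1.85 (standard error; edgeR, adjusted p = 1.0) and -2.92 without mec-8 2. For col-80 it was -0.75 ± 1.48 (standard error; edgeR, adjusted p = 1.0) and 2.18 without wild type 1. The sign of each of these 4 genes depended on 1 or more libraries.

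The 4 members with the smallest unadjusted p were all higher in mec-8, and none passed edgeR's adjusted threshold. The gene col-127 (chromosome IV, 11264908 to 11266190, minus strand) was counted 4, 7 and 1 times in wild type 1, 2 and 3, against 101, 303 and 21 times in mec-8 1, 2 and 3. The mean CPM was 0.163 ± 0.0933 in the wild-type libraries and 4.67 ± 4.76 in the mec-8 libraries (SD, n = 3 each), a low level throughout in which the libraries of the genotypes did not overlap. Its log2 fold change was 4.71 ± 1.45 (standard error; edgeR, unadjusted p = 0.0134, adjusted p = 1.0), and DESeq2 gave 4.56 (adjusted p = 0.0326). The gene passed the filter on low counts only through the mec-8 libraries, where it was high, and it was not tested under the filter of 10 counts in every library. Its neighbour col-126, 510 bases away on the other strand, had 2, 14 and 0 counts in wild type 1, 2 and 3 and 65, 239 and 23 counts in mec-8 1, 2 and 3, and also did not overlap between genotypes. Every mec-8 library was above every wild-type library for 3 of the 135 members that reached 10 counts (2.22%), against 4.71% of all genes. The lack of overlap was thus no more frequent in the family than elsewhere. With 3 libraries in a genotype and 0.349% of all genes called by DESeq2, these low counts are given as values.

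The gene col-146 stood at 44.9, 141 and 34.8 CPM in wild type 1, 2 and 3 and at 727, 1459 and 84.5 CPM in mec-8 1, 2 and 3, so mec-8 3 lay below wild type 2. Its log2 fold change was 3.37 ± 1.11 (standard error; edgeR, unadjusted p = 0.0180, adjusted p = 1.0). The gene col-39 stood at 22.6, 84.5 and 18.3 CPM in wild type and 284, 528 and 27.3 CPM in mec-8, and its log2 fold change was 2.77 ± 1.09 (standard error; edgeR, adjusted p = 1.0). The gene col-133 stood at 45.9, 98.1 and 22.8 CPM in wild type and 419, 632 and 29.5 CPM in mec-8, and its log2 fold change was 2.74 ± 1.09 (standard error; edgeR, adjusted p = 1.0). All 3 belonged to the set highest in wild type 2, mec-8 1 and mec-8 2, and in each the genotypes overlapped.

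**Figure D5:**
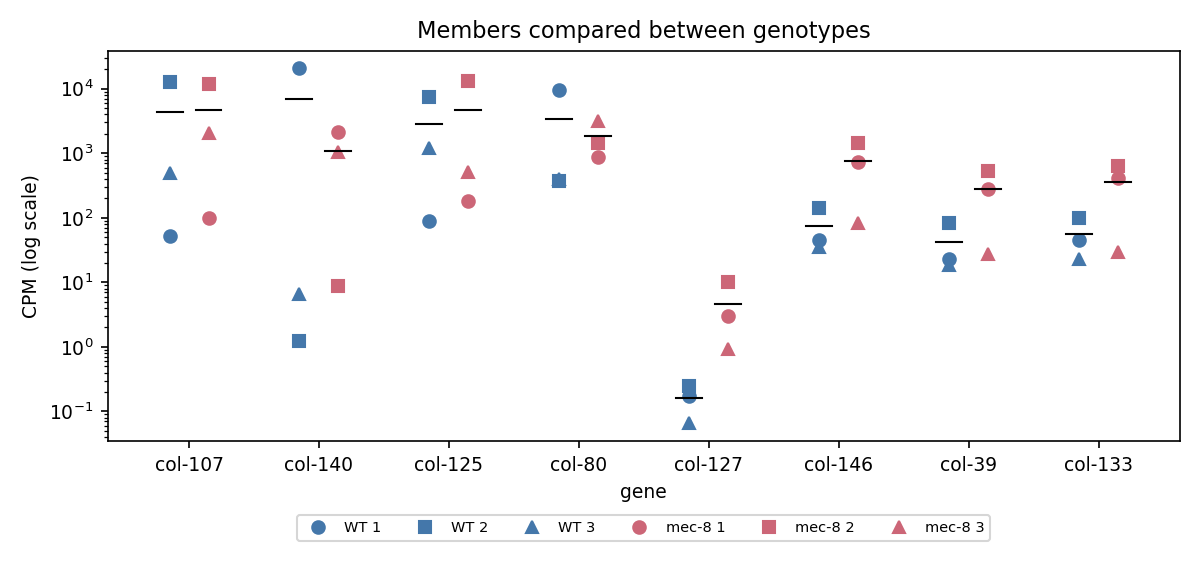
The CPM, on a log axis, of the 4 members with the highest mean level (left) and the 4 with the smallest unadjusted p (right) is drawn for each library, blue for wild type (WT) and red for mec-8, with the replicate number as the symbol and the mean as a line. The genotypes overlap in every gene but col-127, whose wild-type libraries lie at 0.0652 to 0.251 CPM and mec-8 libraries at 0.925 to 10.02 CPM. Every mec-8 library was above every wild-type library for 2.22% of the members and 4.71% of all genes that reached 10 counts.

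Genes that work with the collagens were read as lists, which were chosen with earlier results of these data known. The 18 body-shape collagens, cuticle collagens named for the dumpy, roller, squat, blister and long mutants, summed to 158, 13187 and 4311 CPM in wild type 1, 2 and 3 and to 527, 4426 and 153 CPM in mec-8 1, 2 and 3. They were low in wild type 1 and mec-8 3, where the col family still took 10.4% and 1.99% of the counts. The 10 molting and apical matrix genes, including noah-1 and mlt-11, summed to 30.8, 1340.3 and 917 CPM in wild type and 65.9, 479 and 16.7 CPM in mec-8, with 5 of the 10 at 0 counts in mec-8 3. The epidermal collagen dpy-7, whose promoter marked hypodermal nuclei in the study, had 0 CPM in wild type 1 and mec-8 3 and 159 CPM in wild type 2. Another epidermal marker of the study, clec-1, ran differently, with 190.6 CPM in wild type 1, 31.9 in wild type 2 and 38.4 in mec-8 3, and with elt-3 the 3 markers summed to 206 CPM in wild type 1 and 201 CPM in wild type 2. Of the 8 epidermal regulators, 1 was at 0 counts in wild type 1 and 2 in mec-8 3. The regulators elt-3 and lin-26 were present in all libraries, at 1.54 to 15.6 and 13.8 to 111 CPM, while nhr-25 had 0 counts in wild type 1 and mec-8 3 and 1 in mec-8 1, and blmp-1 had 0 in mec-8 3.

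The 11 collagen biogenesis genes, which hydroxylate, fold, trim and cross-link collagen chains, summed to 903, 2173 and 4221 CPM in wild type 1, 2 and 3 and to 2946, 1446 and 584 CPM in mec-8 1, 2 and 3. Most of this was pdi-2, the disulfide isomerase subunit of the prolyl hydroxylase, at 455 to 3878 CPM. The hydroxylase subunit gene dpy-18 ran from 0.352 CPM in mec-8 3 to 113 CPM in wild type 2. Wild type 1, with the largest share of col reads, was thus not the highest library of the biogenesis genes. Between genotypes, 0 of the 18 body-shape collagens and 0 of the 11 biogenesis genes passed edgeR's test. Neither did any of the 8 epidermal regulators or the 10 molting genes. In that order, 16, 7, 7 and 10 of them had a log2 fold change below 0, while 50.5% of all genes were above 0. None of these had an unadjusted p under 0.05. The same was so for the basement membrane collagens emb-9, let-2 and cle-1, all 3 below 0. Genes of a list shared their libraries, and the directions did not hold in each library. The summed body-shape and molting genes were lower in wild type 1 (158 and 30.8 CPM) than in mec-8 1 (527 and 65.9 CPM) and mec-8 2 (4426 and 479 CPM).

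Genes of other cells varied between the libraries as well. The 10 touch neuron genes summed to 14706, 1620 and 4833 CPM in wild type 1, 2 and 3 and to 11523, 1026 and 1462 CPM in mec-8 1, 2 and 3, and none was at 0 in any library. The summed touch neuron genes were highest in wild type 1 and mec-8 1, libraries led by col-140, and lowest in mec-8 2, a library led by col-125. They did not follow col-140 in every library. In mec-8 3, where col-140 was also abundant, they summed to 1462 CPM, below wild type 2 (1620 CPM) and wild type 3 (4833 CPM), where col-140 was low. The 5 pan-neuronal markers summed to 53.7 to 432 CPM and the 31 sperm msp genes to 26.0 CPM in wild type 2 and 81871 CPM in mec-8 1. The 3 intestinal markers ranged from 6.26 CPM in wild type 3 to 1655 CPM in mec-8 3. There mtl-2 alone held 1575.5 CPM. Of the other markers, elt-2 was also highest in mec-8 3 and ges-1 was highest in mec-8 1. The 4 body wall muscle markers ranged from 1136 CPM in mec-8 3 to 25210 CPM in mec-8 1, with 0 of the 4 at 0 counts except in mec-8 3, where unc-120 was. Most of this sum was unc-54, at 24877 CPM in mec-8 1. The others had other outlines, with myo-3 highest in wild type 3 and unc-120 and twk-8 highest in wild type 2. The coelomocyte genes unc-122 and cup-4 summed to 0.302 CPM in wild type 1, 835 in wild type 2 and 595 in mec-8 2. The part of these other cells in the collagen values was not tested, and fewer cells of a type cannot be told apart from less RNA per cell in sorted bulk samples. Wild type 1 also had 70024247 alignments to more than 1 place set aside, against 1922629 to 11988379 in the other libraries, and 11.1% of its uniquely mapped reads fell on more than 1 gene.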

How the data were processed

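PolyA RNA from sorted GFP-positive cells of wild-type and mec-8(e398) L4 animals was sequenced in 6 libraries. Per the labels and the study methods, the authors aligned the reads to WBcel235 using STAR, and HTSeq gave the gene counts. The deposited values are raw counts per gene, followed by summary lines that name no gene. How HTSeq treated strand is not given in the sources used here. Coordinates and exon lengths were taken from Ensembl release 115 of WBcel235, which held all 156 members. CPM were taken over the counts on genes. Summary lines stayed out of library totals. Adding uniquely mapped reads outside genes and reads shared by genes to the total lowered the collagen share of wild type 1 from 10.4% to 8.85%. Leaving out the ribosomal RNA genes raised it to 11.4%. Those genes held 9.35% of the gene counts in wild type 1 and 5.25% in wild type 3. In the other libraries they held 0.505% to 1.22%, and all CPM include them.

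Genotypes were compared with edgeR 4.0.16 in R 4.3.3 (quasi-likelihood test, TMM, filterByExpr, Benjamini-Hochberg, threshold 0.05). Standard errors were obtained by dividing the size of each log2 fold change by the root of its F statistic. Alternatives were DESeq2 1.42.0, other normalizations and filters, limma 3.58.1 voom with quality weights, a replicate block and fits that each lacked 1 library. A yolk covariate and a fit on wild type 2, wild type 3 and mec-8 2 were chosen after seeing the data. The fits were tested on simulated counts: at a small spread edgeR and DESeq2 recovered nearly all changed genes, while at the spread estimated from these libraries edgeR recovered none and most DESeq2 calls were unchanged genes.

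Members and lists were chosen with earlier results of these data known. Members with values in every library are those among the leading 5 of any library and those of the stage lists. Fold changes are given for the 4 members with the highest mean CPM and the 4 with the smallest unadjusted p. Neighbours, including col-126 and col-168 to col-170, and the sets of 3 libraries were chosen after their values were seen. Replicates share numbers in the labels but nothing says they were processed as pairs, and p-values measure the spread between these libraries, which may be technical.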

Additional observations from a re-analysis of the deposited data

How the results depend on the processing

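Depth was ample for the leading members, and the spread between libraries, not counting error, limited the genotype comparison. DESeq2 called 1 member, and the other 14 alternatives, each library left out in turn included, called 0. The median log2 fold change of the members ran from -0.97 to 0.59 over the libraries left out. For col-107 the sign turned under DESeq2 (-0.25), upper-quartile normalization (-0.0877) and a filter of 10 counts in every library (-0.22). For col-140 and col-80 it turned under voom with quality weights (3.83 and 1.39), the replicate block (2.58 and 0.90) and in wild type 2, wild type 3 and mec-8 2 alone (0.31 and 1.21), where the lone mec-8 library is assumed to vary like the wild type. With libraries left out, col-107 ran from -1.92 to 3.495, col-140 from -3.61 to 8.04, col-125 from -2.92 to 2.16 and col-80 from -1.55 to 2.18. The genes col-127, col-146, col-39 and col-133 kept their sign in every fit that tested them. With libraries left out they ran from 3.83 to 5.07, 2.78 to 4.02, 2.22 to 3.55 and 2.09 to 3.26. These 4 were picked for their small unadjusted p in the same libraries, so the kept sign is no separate support. The cause of the shifts between fits was not tested. With the replicate block 0 members were called. The correlations of deviations of same-numbered libraries were 0.04, 0.50 and -0.22 for replicates 1, 2 and 3, so the numbers were not taken to pair the samples. Upper-quartile normalization moved the median of all genes to -0.11. The leading 5 members in place of 10 held 52.2% of the collagen reads in wild type and 45.6% in mec-8 on average, and with libraries left out the leading 10 held 67.4% to 73.5% and 62.2% to 67.6%. The collagen share of the gene counts ran from 2.61% to 7.19% in wild type and from 1.98% to 4.23% in mec-8 with libraries left out. Leaving out near-identical copies was not run.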
